A study of Mus musculus with 2 samples.

Results

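The Reg gene cluster of the mouse holds the genes Reg1, Reg2, Reg3a, Reg3b, Reg3d and Reg3g, and was examined in DNase-seq data from thymus tissue. The cluster was taken as 1 interval, chr6:78350657-78488872 (mm10), made of the GENCODE bodies of the 6 genes and 20 kb on each side. All 6 of the 6 named genes were found there, of 21938 protein-coding genes annotated on the main chromosomes. The interval spans 138 kb and holds 1 further annotated gene, the processed pseudogene Gm21392 at chr6:78482693-78483664.

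REG proteins are small secreted C-type lectins. Reg1 and Reg2 are known as abundant products of the acinar cells of the pancreas, the cells that make digestive enzymes. Reg3b and Reg3g are antibacterial lectins of the gut epithelium, where interleukin 22 switches them on through the transcription factor STAT3, and inflamed pancreas makes them too.

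DNase-seq maps chromatin that the nuclease DNase I can cut, and a stretch of frequent cutting is called a peak. A footprint is a short run of bases inside open chromatin that is cut less than its surroundings. The series has 2 libraries, both labelled as thymus tissue. The mice were 36-day-old males of the strain B6CASTF1/J, an F1 hybrid of C57BL/6J and CAST/EiJ. There is no treatment, so the 2 libraries form 1 group, and the only comparison is between the library labelled replicate 1 and the library labelled replicate 2. The labels give separate biological replicates but the same donor identifier for both. The tissue is bulk, so fewer cells of a type and less open chromatin per cell cannot be told apart. Reads of both parental genomes were placed on the C57BL/6J reference, and any effect of CAST/EiJ alleles on the cluster was not tested.

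The libraries stood apart at genes of the labelled tissue, and the tissue label of the replicate 1 library is in doubt. Of 14 thymocyte genes, 3 had a promoter peak, that is 1 within 1 kb of any transcript start, in the replicate 1 library and 14 in the replicate 2 library. Cd3e, Cd8a, Rag1 and Bcl11b were among the 11 with one in the replicate 2 library only. Of 17 acinar cell genes of the pancreas, 17 had a promoter peak in the replicate 1 library and 5 in the replicate 2 library. Every value of the replicate 1 library below is that of the library so labelled, whatever tissue it holds. The replicate 1 library held 85367 peaks and 316358 footprints, and the replicate 2 library held 60644 peaks and 270843 footprints. Each library also has a longer peak list, of 126824 and 88164 peaks. Sequencing depth is unknown. The signal of a peak is given on a scale that the sources used here do not explain, so signals are compared within a library, by percentile. The FDR tables list false discovery rates for cutting and hold only stretches below 0.05, so a stretch that is not listed is not shown to be uncut.

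Every peak, footprint and listed FDR stretch of the Reg interval came from the library labelled replicate 1. That library had 6 peaks of the shorter list there, covering 1208 bp with a summed signal of 12.4, and the replicate 2 library had 0. There were 25 footprints covering 291 bp in the replicate 1 library and 0 in the replicate 2 library. No share over the genome is given for footprints, so how unusual these counts are is not shown. The FDR table of the replicate 1 library listed 4163 bp of the interval, of which 2960 bp had an FDR of at most 0.01 and 1950 bp of at most 0.001. The table of the replicate 2 library listed 0 bp. No region had a peak in both libraries, which follows from the 0 peaks of the replicate 2 library and adds nothing to it. Without the replicate 1 library, therefore, each of these values is 0. The genes were selected on the peaks of these 2 libraries, which were known when the cluster was picked, so the counts are descriptions and carry no test.

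Set against tiles of the same length across the genome, the peaks of the interval were not unusually dense. Of 19710 tiles, 29.4% had 6 or more peaks in the replicate 1 library, and 47.9% had none in the replicate 2 library. Tiles with both, 6 or more peaks in the replicate 1 library and none in the replicate 2 library, numbered 249 (1.26%), and the reverse was found in 25 (0.127%). In 88 tiles (0.446%) with 6 or more peaks in the replicate 1 library, the replicate 2 library had no listed FDR stretch either. The 794 tiles with exactly 6 peaks in the replicate 1 library had a median of 4 in the replicate 2 library. The listed share of the interval was 3.01% in the replicate 1 library, against 1.87% of the genome. In the replicate 2 library it was 0, against 1.26% of the genome.

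**Figure D1:**
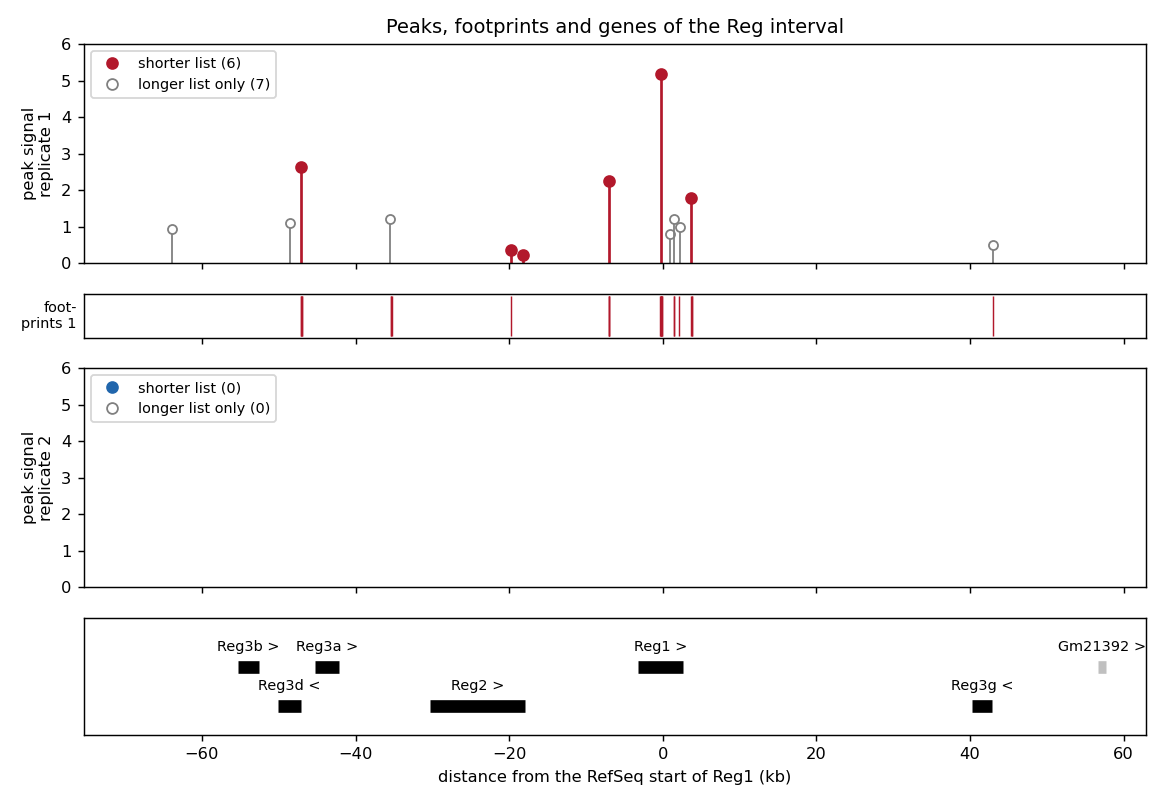
Peaks, footprints and genes of the Reg interval by distance from the RefSeq start of Reg1 (kb). Stems give the signal of each peak (filled, shorter list; open, longer list only) in the replicate 1 library (top) and the replicate 2 library (below), ticks mark footprints of the replicate 1 library, and bars mark genes with arrowheads for strand. The 6 peaks of the shorter list, the highest at 5.17 by the start of Reg1, are all in the replicate 1 library, and the replicate 2 panel is empty.

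The sequences of the open regions follow, because the footprints within them are the finest detail the data give of the cluster. They are read from GRCm38.p6, with bases inside a footprint of the replicate 1 library in capitals. The first is the peak before the start of Reg1 (chr6:78425601-78425900, + strand). The second is the upstream part of the peak over the start of Reg3d (chr6:78378866-78379060, - strand). The third lies between Reg2 and Reg1 (chr6:78418841-78419080, + strand). The fourth lies past the end of Reg1 (chr6:78429621-78429826, + strand), and the fifth covers exon 3 of Reg2 (chr6:78406124-78406320, + strand).
Reg1 promoter peak: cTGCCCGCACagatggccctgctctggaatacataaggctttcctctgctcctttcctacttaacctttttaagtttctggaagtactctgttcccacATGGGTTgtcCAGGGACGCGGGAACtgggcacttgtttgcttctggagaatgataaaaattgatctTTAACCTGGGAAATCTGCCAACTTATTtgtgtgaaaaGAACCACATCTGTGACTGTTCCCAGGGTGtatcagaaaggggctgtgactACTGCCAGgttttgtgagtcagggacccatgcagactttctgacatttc
Reg3d promoter peak: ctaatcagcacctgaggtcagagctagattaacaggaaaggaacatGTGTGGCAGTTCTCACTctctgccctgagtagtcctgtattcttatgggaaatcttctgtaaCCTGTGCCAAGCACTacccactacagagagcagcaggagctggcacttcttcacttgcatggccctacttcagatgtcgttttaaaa
Reg2-Reg1 intergenic peak: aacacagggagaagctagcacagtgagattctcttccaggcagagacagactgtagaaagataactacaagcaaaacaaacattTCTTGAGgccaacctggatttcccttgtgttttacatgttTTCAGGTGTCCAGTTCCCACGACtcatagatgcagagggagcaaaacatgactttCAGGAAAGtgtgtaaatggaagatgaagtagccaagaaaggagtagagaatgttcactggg
Reg1 downstream peak: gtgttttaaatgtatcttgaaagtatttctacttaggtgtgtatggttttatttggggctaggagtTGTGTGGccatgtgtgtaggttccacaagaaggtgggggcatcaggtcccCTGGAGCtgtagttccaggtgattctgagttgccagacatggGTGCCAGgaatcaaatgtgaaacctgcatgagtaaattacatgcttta
Reg2 exon peak: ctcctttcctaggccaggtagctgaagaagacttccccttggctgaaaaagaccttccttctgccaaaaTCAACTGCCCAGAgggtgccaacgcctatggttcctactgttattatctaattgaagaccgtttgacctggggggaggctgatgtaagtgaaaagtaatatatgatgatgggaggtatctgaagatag

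For the 4 genes with no peak of the shorter list over or just before the RefSeq start, the 250 bases before that start are shown in the direction of the gene, to set beside the open promoters. They lie at chr6:78404905-78405154 (Reg2, + strand), chr6:78370635-78370884 (Reg3b, + strand), chr6:78380459-78380708 (Reg3a, + strand) and chr6:78468875-78469124 (Reg3g, - strand). The RefSeq starts are those of the promoter table for GRCm38.p6, which matched 6 of 6 genes. Capitals again mark footprints, and of these windows Reg3g alone holds one.
Reg2 upstream: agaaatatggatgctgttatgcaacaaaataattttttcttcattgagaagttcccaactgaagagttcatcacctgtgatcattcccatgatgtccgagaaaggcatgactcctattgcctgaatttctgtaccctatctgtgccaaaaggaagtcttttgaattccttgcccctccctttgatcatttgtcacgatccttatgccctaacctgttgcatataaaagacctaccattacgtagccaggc
Reg3b upstream: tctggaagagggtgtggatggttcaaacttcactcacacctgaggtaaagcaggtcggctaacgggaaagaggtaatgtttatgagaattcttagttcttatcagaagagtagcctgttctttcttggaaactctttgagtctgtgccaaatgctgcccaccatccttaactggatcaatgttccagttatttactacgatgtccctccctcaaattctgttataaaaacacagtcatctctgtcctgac
Reg3a upstream: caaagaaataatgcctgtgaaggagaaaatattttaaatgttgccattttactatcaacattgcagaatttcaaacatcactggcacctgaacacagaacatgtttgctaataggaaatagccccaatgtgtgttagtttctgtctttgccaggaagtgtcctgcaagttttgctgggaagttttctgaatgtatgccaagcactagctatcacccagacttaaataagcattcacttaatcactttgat
Reg3g upstream: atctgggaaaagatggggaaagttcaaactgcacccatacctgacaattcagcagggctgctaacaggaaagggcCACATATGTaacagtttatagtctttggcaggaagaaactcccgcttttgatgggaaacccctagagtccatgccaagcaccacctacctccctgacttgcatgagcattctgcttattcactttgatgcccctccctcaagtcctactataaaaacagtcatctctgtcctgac

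Reg1 (ENSMUSG00000059654.7, chr6:78422711-78428667, + strand), which encodes the pancreatic lectin also known as lithostathine or pancreatic stone protein, had the strongest peak of the cluster. It is 300 bp wide, ends 83 bp before the RefSeq start at 78425983 and lies in an intron of the longer Reg1 transcripts. Its signal was 5.17 in the replicate 1 library, at percentile 91.3 of that library's peaks, whose median was 1.28. The replicate 2 library had no peak there in either list. Among genes with a promoter peak in the replicate 1 library, 63.1% of all genes, the value stood at percentile 55.0. A peak high among all peaks was thus an ordinary one among promoters that had a peak. The lowest FDR within it was 5.43e-19, and the listed stretch around it ran on for 1027 bp (chr6:78425394-78426420), past the start and over the first 2 exons. The peak held 6 footprints covering 95 bp, the most of any peak in the interval, and a further one of 13 bp lay between the peak and the start. The widest were 29 bp (chr6:78425802-78425830) and 27 bp (chr6:78425765-78425791).

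A pair of weaker peaks flanked Reg1. The peak between Reg2 and Reg1 lay 6903 bp before the RefSeq start of Reg1, and 3631 bp before the nearest GENCODE start. Its signal was 2.25 (percentile 71.3) with a lowest FDR of 4.66e-08 and 3 footprints covering 38 bp, of which the widest was 23 bp (chr6:78418965-78418987). The other began 3638 bp past the RefSeq start, beyond the end of the gene, with a signal of 1.80 (percentile 63.6), a lowest FDR of 1.62e-05 and 3 footprints of 7 bp each. Neither had a counterpart in the replicate 2 library.

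Reg3d (ENSMUSG00000068341.8, chr6:78375874-78378865, - strand), a member of the REG3 branch known from the pancreas, had a peak across its start. The peak spans chr6:78378821-78379060, where the replicate 2 library had none. Its signal was 2.63 in the replicate 1 library, at percentile 75.9 of all peaks and 24.9 among genes with a promoter peak. Its lowest FDR was 1.93e-07 and it held 3 footprints covering 41 bp, of 17, 15 and 9 bp. Thus 2 of the 6 genes, Reg1 and Reg3d, had a peak within 500 bp of a start. No share over all genes is given for that window, so how usual this is is not shown.

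Reg2 (ENSMUSG00000023140.4, chr6:78395623-78408106, + strand), the other pancreatic lectin gene, was open inside the gene and not at its start. One peak lay over exon 3, 966 bp past the GENCODE start at 78405158, with a signal of 0.376 (percentile 6.3). A second, 25 bp wide (chr6:78407736-78407760), lay at the boundary of exon 5 and the last intron with a signal of 0.22 (percentile 0.6). Both signals are among the lowest of the replicate 1 library, and the replicate 2 library again had no peak. Their FDRs were among the lowest of the cluster, 2.42e-23 for the exon 3 peak and 1.59e-12 for the narrow one. The exon 3 peak falls within the 1 kb promoter window by its edge, which places Reg2 among the 3 of 6 Reg genes with a promoter peak in the replicate 1 library and none in the replicate 2 library. Of all 21938 genes 6.41% had a promoter peak in the replicate 1 library only, 63.1% had one in that library at all and 60.1% in the replicate 2 library. No Reg gene had one in both libraries (56.7% of all genes) or in the replicate 2 library only (3.37%), and 3 had none in either (33.5%). With the gene's 5' end as the only start, Reg3d alone counted, 1 gene instead of 3. For that rule no share over all genes is given.

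Reg3g (ENSMUSG00000030017.2, chr6:78466269-78468872, - strand), one of the antibacterial lectins, had a peak in the longer list alone. It is 135 bp wide (chr6:78468959-78469093), lies 85 bp before the RefSeq start, and had a signal of 0.494, a lowest FDR of 0.0145 and 1 footprint of 9 bp in the replicate 1 library. With the longer list 4 of 6 Reg genes had a promoter peak in the replicate 1 library, where 67.2% of all genes did, and still 0 in the replicate 2 library. Over all genes 6.02% had one in the replicate 1 library only by the longer lists. The other antibacterial lectin gene, Reg3b (ENSMUSG00000071356.7, chr6:78370657-78373466, + strand), had no peak of either list in either library. The same held for Reg3a (ENSMUSG00000079516.2, chr6:78380709-78383827, + strand), a further REG3 lectin gene. Within 1 kb of the bodies of these 2 genes the FDR tables listed 0 bp. The listed length over the same span in the replicate 1 library was 1878 bp at Reg1, 633 bp at Reg2, 519 bp at Reg3d and 200 bp at Reg3g.

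The longer list added 7 peaks of the replicate 1 library in all, with signals from 0.494 to 1.22, and none of the replicate 2 library. One lay on exon 3 of Reg3d (signal 1.11, lowest FDR 0.00732), 1 between Reg3a and Reg2 (1.22, 0.00110) and 1 before Reg3b, 8494 bp from its start (0.933, 0.0491). A further 3 lay on exons of Reg1, with signals of 0.807, 1.22 and 1.00 and lowest FDRs of 0.0203, 0.000754 and 0.00455. In all, the listed bases of the replicate 1 library fell into 13 separate stretches.

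**Figure D2:**
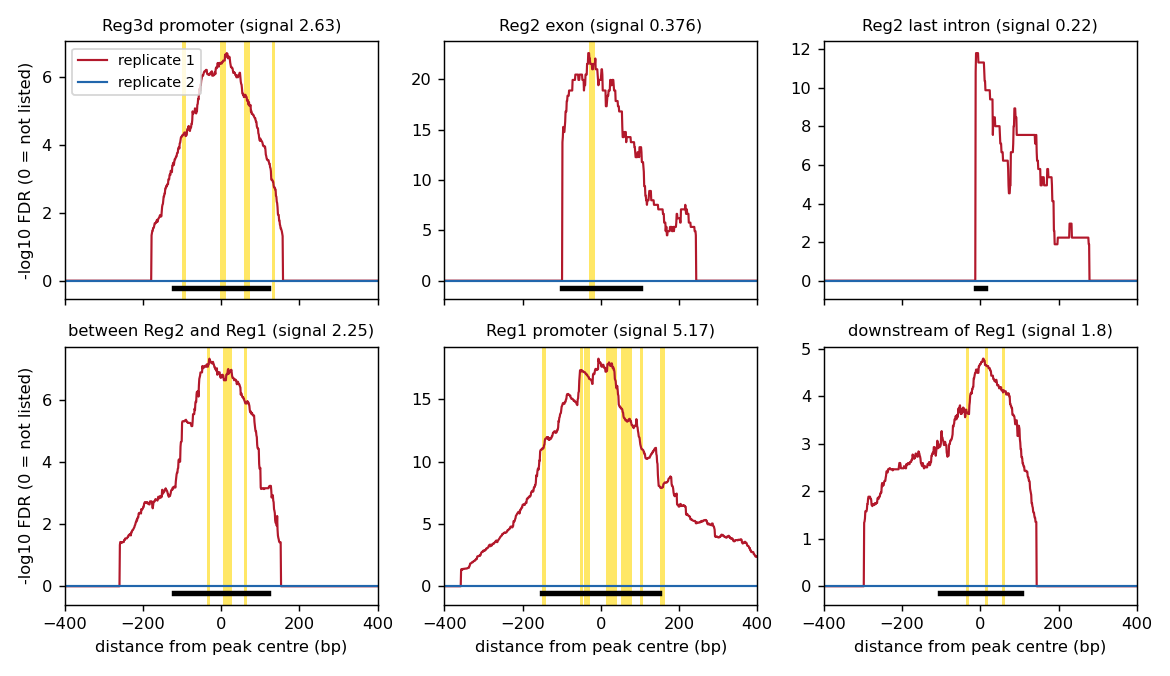
FDR as -log10 (0 where a base is not listed) against distance from the peak centre (bp) at the 6 peaks of the Reg interval, each panel on its own vertical scale. Red is the replicate 1 library and blue the replicate 2 library, black bars are peaks and yellow bands are footprints of the replicate 1 library. The Reg2 exon profile climbs to 22.6 and the Reg1 promoter profile to 18.3, the profiles of the Reg2 peaks begin abruptly at the peak's edge, and the blue line stays at 0 in every panel.

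Listed stretches covered most exons of Reg1 and a few of Reg2 and Reg3d. Of the 6 exons of Reg1, exons 1, 2, 4 and 5 were listed over their whole length in the replicate 1 library and exon 3 over 95.8%, while exon 6 was not listed. At Reg2 exon 3 was listed whole, exon 6 over 54.5% and exon 5 over 4.46%, and exons 1, 2 and 4 were not. Beyond 1 kb of its starts more listed bases of Reg2 lay in introns (380 bp) than in exons (218 bp). At Reg3d exons 1 and 3 were listed whole and the other 4 were not.

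Beyond 1 kb of any start, 52.6% of exon bases and 10.6% of intron bases of Reg1 were listed in the replicate 1 library. The shares were 40.1% and 4.25% at Reg2, and 14.7% and 3.73% at Reg3d. No base of Reg3a or Reg3g was listed there, and Reg3b has no base that far from a start. Over the 6 genes together 17.4% of exon and 4.76% of intron bases were listed, against 2.82% and 1.69% over all protein-coding genes. Introns of Reg2 are far longer than its exons, so its shares and its base counts run in opposite directions. No test was made of these shares. In the replicate 2 library the Reg genes had 0% of either, against 1.93% of exon and 0.948% of intron bases over all genes.

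The relation of signal to FDR split the 6 peaks. Across the 85367 peaks of the replicate 1 library the lowest FDR of a peak was lower where its signal was higher (Spearman's rho between signal and -log10 FDR 0.810, over peaks of 1 library that share its depth). The Reg2 exon 3 peak reached a -log10 FDR of 22.6, against a median of 4.4 among 2927 peaks within 10% of its signal, and 4 of those had a lower FDR. The narrow Reg2 peak reached 11.8, against a median of 3.8 among 571 such peaks, of which 6 had a lower FDR. These 2 peaks, then, combined a weak signal with an FDR that is rare at that strength. The other 4 lay on the opposite side, at percentiles 3.1 to 8.5 of -log10 FDR among peaks within 10% of their signal. The Reg1 promoter peak reached 18.3 against a median of 43.5 among 2988 peaks of like signal, and the Reg3d peak 6.7 against 19.8 among 4896. The peak between Reg2 and Reg1 reached 7.3 against 17.0 among 5361, and the one past Reg1 reached 4.8 against 13.3 among 6255.

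**Figure D3:**
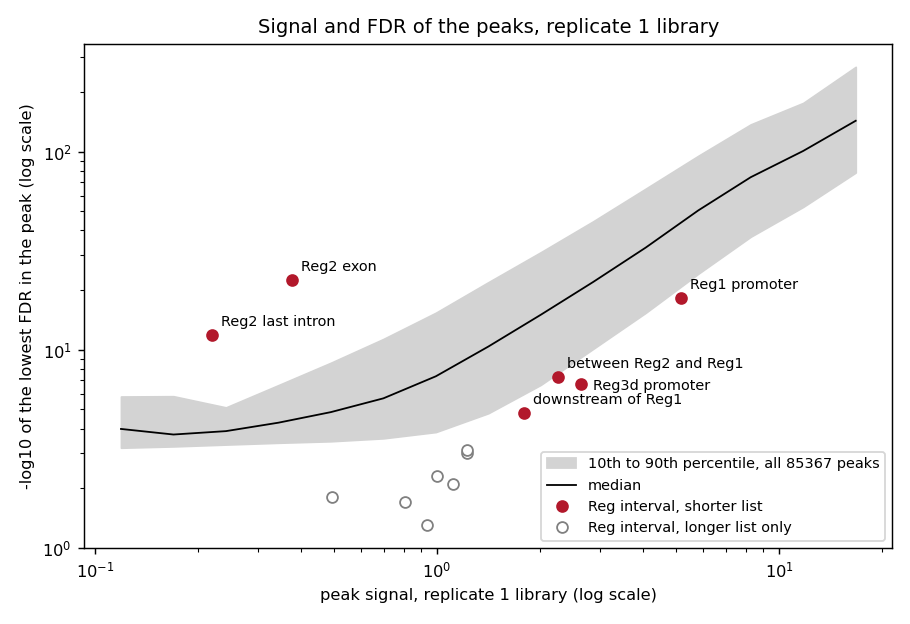
Peak signal against -log10 of the lowest FDR in the peak (both axes logarithmic) in the replicate 1 library. The grey band spans the 10th to the 90th percentile of all 85367 peaks of the shorter list and the line their median, red points are the 6 peaks of the Reg interval and open points its 7 peaks of the longer list alone. The Reg2 peaks lie above the band (22.6 and 11.8). The other red points lie below the median, at percentiles 3.1 to 8.5 among peaks within 10% of their signal.

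The peaks lay in sequence that is unique in the genome. Every 36-base word that begins in any of the 13 peaks occurred once in GRCm38.p6, as did 74.2% of the words in the whole interval. Gene bodies ranged from 36.2% at Reg2 to 100% at Reg3b and Reg3d. The windows of 1 kb around the RefSeq starts ranged from 87.5% at Reg3b to 100% at Reg3a and Reg3g, so most words near every start occurred once.

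The footprints were searched for 19 consensus sequences, on both strands, chosen for factors of acinar cells, gut epithelium and T cells. Most of the 25 footprints held none of them whole, and those that did are described here. The shares given beside them are over peak or promoter windows, which are wider than a footprint. No share over footprints is given. The 27 bp footprint of Reg1 held TTTCCC, known as the TC box, on the opposite strand at position -208 from the RefSeq start. TTTCCC occurred in 3 of 6 Reg peaks, taking 200 bp around each centre, and in 17.9% of all 85367 peaks. The 29 bp footprint of Reg1 held the RUNX sequence TGTGGTT on the opposite strand at -177, which 3.76% of all peaks hold. In the peak between Reg2 and Reg1, the 23 bp footprint held the E-box CACCTG on the opposite strand, found in 2 of 6 Reg peaks and 22.6% of all peaks. The footprint before Reg3g held the E-box CATATG at -171, found in 3.46% of 32851 promoter windows of 250 bases.

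A further 4 sequences were added once the footprints had been read, so their matches only describe them. The acinar factor complex PTF1 is known to bind an E-box followed at a fixed distance by a TC box. The letters searched here end in TTCCC, without the first T of the TC box TTTCCC. The letters CANNTGNNNNNNTTCCC, an E-box and TTCCC with 6 bases between, lay whole inside the 29 bp footprint of Reg1, centred at -167 and sharing 2 bases with the RUNX match. The form with 5 bases between, CANNTGNNNNNTTCCC, lay whole inside the 23 bp footprint between Reg2 and Reg1, sharing the CACCTG. A further match with 5 bases lay at -257 before Reg1, with 6 of its 16 bases in a footprint. The 6-base form occurred in 0.997% of all peaks and 0.295% of promoters, and the 5-base form in 0.724% and 0.341%. Reg2 has the 6-base form at -171, close to its place in Reg1, with neither a peak nor a footprint on it. In all of these matches the base before TTCCC is G or A, so none holds a whole TC box. Binding of PTF1 was not tested.

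The other 2 added sequences are the longest run that the upstream windows of Reg3d, Reg3a and Reg3g share, of 10 bases, and its first 6 bases. Both were taken from those windows, so finding them before these genes follows from the choice and shows no enrichment over other promoters. The short form TGCCAA also lay in the upstream windows of Reg1, Reg2 and Reg3b, so all 6 Reg genes hold it. Of all promoters 12.3% do. The whole run TGCCAAGCAC was found before Reg3d, Reg3a and Reg3g, at -79, -51 and -100, and in 0.0883% of all promoters. In Reg3d it lay whole inside the 15 bp footprint (chr6:78378938-78378952), and at Reg3a and Reg3g there was none over it. The TATA box TATAAA was found before Reg1, Reg2, Reg3b and Reg3g, 4 of 6 genes, and in 12.4% of all promoters. In the 6 peak windows and the 6 upstream windows no match was found for the NR5A sequence AAGGTCA, the FOX sequence TGTTTAC, the HNF4 sequence CAAAGTCCA, the STAT sequence TTCCNGGAA, the E-box CAGCTG, the SP/KLF sequence GGGCGG or the HNF1 and CTCF sequences, which 0.00913% (HNF1) to 32.7% (SP/KLF) of all promoters hold. The GATA sequences AGATAA and TGATAA, the C/EBP sequence TTGCNNAA, the AP-1 sequence TGANTCA, the ETS sequence CNGGAAGT and the TCF sequence CTTTGAT had matches outside footprints only. Of these CTTTGAT was found before 3 of 6 genes (Reg2, Reg3a and Reg3g), against 3.21% of all promoters.

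The upstream windows may be related to one another, so matches shared between genes cannot be taken as separate observations. No promoters of other genes were aligned for comparison, so the identities below do not by themselves show relatedness. Identity over aligned bases ranged from 58.7% (Reg2 and Reg3b) to 71.5% (Reg3a and Reg3g), and was 65.2% between Reg1 and Reg2 (150 of 230 bases). Of the footprints before Reg1, the 13 bp one matched Reg2 at 12 bases and the 29 bp one at 19. The 27 bp footprint matched at 14 bases, with 8 of its bases opposite a gap in Reg2. The 8 bp footprint (chr6:78425852-78425859) matched at 6 bases. Each count rests on few bases, and whether the footprints differ from the rest of the window was not tested.

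Of 14 genes of the pathway around the REG lectins, 10 had a promoter peak in both libraries, where 56.7% of all genes did. In all, 11 had a promoter peak in the replicate 1 library and 10 in the replicate 2 library, where 63.1% and 60.1% of all genes did. Stat3, which carries the interleukin 22 signal to the nucleus, had promoter signals of 14.6 and 29.6 in the replicate 1 and replicate 2 libraries. Extl3, described as a receptor for REG proteins, had 11.4 and 18.4, and the kinase gene Jak1 had 9.27 and 17.3. The scales may differ between libraries, so percentiles among genes with a promoter peak in the same library are given too. Stat3 stood at 99.6 in the replicate 1 library and 99.3 in the replicate 2 library. Extl3 stood at 97.6 and 90.7, and Jak1 at 91.9 and 88.6. Il22ra1, the chain that makes epithelial cells respond to interleukin 22, was the only one of the 14 with a peak in 1 library, 4.52 in the replicate 1 library. Over all genes 6.41% had a promoter peak in that library only and 3.37% in the replicate 2 library only. Reg4 (the family member outside the cluster), Il22 and the decoy receptor gene Il22ra2 had no promoter peak in either, as was so for 33.5% of all genes.

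Markers of the cell types known to use Reg genes differed between the libraries as well. All 17 acinar cell genes that matched the annotation (Amy2b did not) had a promoter peak in the replicate 1 library, with a summed signal of 91.3, and 5 had one in the replicate 2 library, with 12.9. The shares over all genes were 63.1% and 60.1%. The 12 found in the replicate 1 library only (6.41% of all genes) include the digestive enzyme genes Cel (8.54), Ctrb1 (8.19) and Pnlip (4.92) and the regulator Ptf1a (6.95). The 3 with the highest mean percentile were Cela1 (5.92 in the replicate 1 library and 5.10 in the replicate 2 library), Bhlha15 (5.97 and 3.78) and Rbpjl (6.29 and 2.97). Their percentiles among genes with a promoter peak in the same library were 64.4 and 34.2, 64.9 and 26.5, and 68.7 and 22.0. Exons of the acinar list were listed over 66.5% and introns over 31.5% in the replicate 1 library, against 0.825% and 0.302% in the replicate 2 library. Over all protein-coding genes the exon and intron shares were 2.82% and 1.69% in the replicate 1 library, and 1.93% and 0.948% in the replicate 2 library.

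Gut markers had peaks less often than the 63.1% of all genes in the replicate 1 library and 60.1% in the replicate 2 library, a difference that was not tested. Of 10 intestinal epithelium genes 2 had a promoter peak in the replicate 1 library, Lgr5 (1.56) and Vil1 (0.823), with a summed signal of 2.38, and 0 in the replicate 2 library. The defining genes Cdx2, Fabp2, Muc2 and Sis had none. Counts in the replicate 1 and replicate 2 libraries were 6 and 2 of 13 for islet, 3 and 2 of 8 for stomach, and 4 and 1 of 8 for liver. As shares these are 46.2% and 15.4%, 37.5% and 25%, and 50% and 12.5%, all below the shares over all genes. Their summed signals were 18.8 and 14.2 for islet, 6.62 and 4.02 for stomach, and 8.28 and 0.848 for liver.

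Thymocyte genes had promoter peaks at 3 of 14 (21.4%) in the replicate 1 library and 14 of 14 in the replicate 2 library, where 63.1% and 60.1% of all genes did. Their summed signals were 10.5 and 101, on scales that may differ, since the 90th percentile of peak signal was 4.81 in the replicate 1 library and 9.11 in the replicate 2 library. The 3 with the highest percentile, averaged over the libraries, were Lck (5.72 and 11.8), Satb1 (2.23 and 13.3) and Tcf7 (2.58 and 6.72). Thymic epithelium genes had peaks at 5 and 4 of 9 (55.6% and 44.4%), below the shares over all genes, with summed signals of 19.6 and 38.5. Of these Ccl25 (8.64 and 16.7), Ly75 (2.28 and 12.1), Aire (1.17 and 5.33) and Prss16 (4.03 and 4.25) had one in both libraries and Krt8 (3.50) in the replicate 1 library only. Foxn1, Psmb11, Krt5 and Krt14 had none in either. Macrophage and dendritic cell genes had peaks at 2 and 3 of 8 (25% and 37.5%), with summed signals of 5.75 and 6.23. The part of any of these cell types in the peaks of the Reg interval was not tested.

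**Figure D4:**
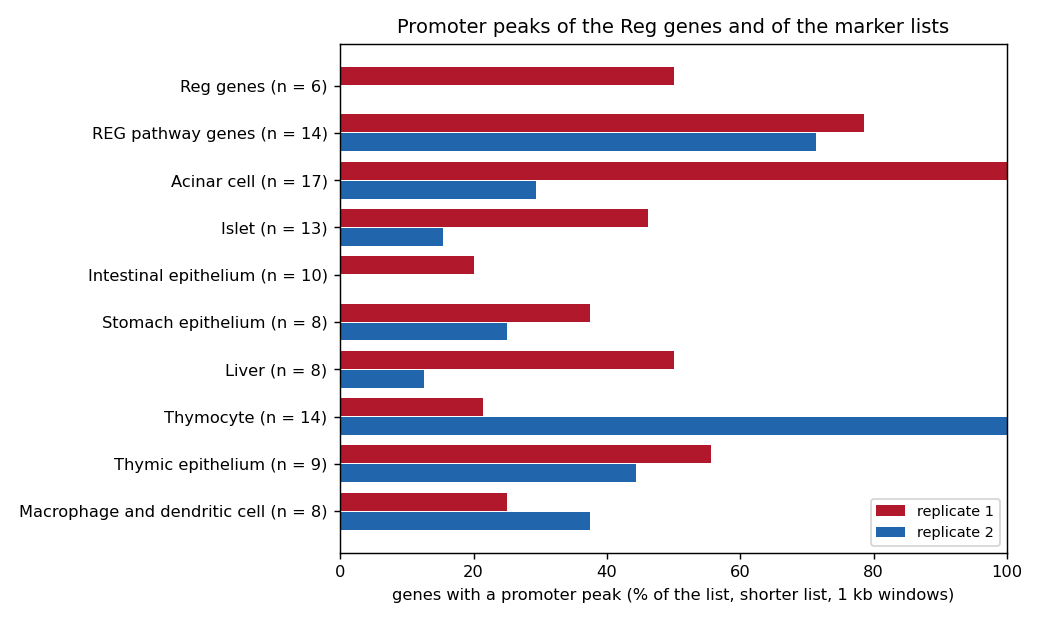
Share of each gene list with a promoter peak (% of matched genes, peaks of the shorter list within 1 kb of a transcript start), in the replicate 1 library (red) and the replicate 2 library (blue). The Reg genes stand at 3 of 6 and 0 of 6, acinar cell genes at 17 and 5 of 17, and thymocyte genes at 3 and 14 of 14.

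Within the surroundings of the cluster, the replicate 2 library had no peak of the shorter list for a long way beyond the interval. Its nearest peaks of the shorter list lay at chr6:74123861-74123923 (signal 0.216) and chr6:81923581-81923740 (11.9), a gap of 7.8 Mb. In that gap the replicate 1 library had 26 peaks, 6 of them in the Reg interval, and the Reg1 promoter peak was the second strongest of the 26, after one of 9.39. The gap holds 11 protein-coding genes, of which 6 are the Reg genes and others are Ctnna2, Lrrtm1 and Lrrtm4, which are known from neurons. In the longer list the replicate 2 library came closer, with peaks of 0.247 and 0.193 on either side and 565 kb between them. These lay 370856 bp before the interval and 55488 bp after it. Gaps elsewhere in the genome are not given, so how unusual either gap is is not shown. The nearest peaks of the replicate 1 library outside the interval lay 16656 bp before it (0.502) and 24088 bp after it (1.58).

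By summed peak signal over the gene body and 20 kb on each side, Reg2 had 10.6 in the replicate 1 library, Reg1 9.81 and Reg3b, Reg3d and Reg3a 2.63 each, from the 1 peak at Reg3d that their windows share. Reg3g had 0, and all 6 had 0 in the replicate 2 library. These sums do not rank the genes' own peaks, because neighbouring windows overlap. The sum at Reg2 comes mostly from the peaks at Reg1 (5.17), at Reg3d (2.63) and between Reg2 and Reg1 (2.25), and its own 2 peaks had 0.376 and 0.22. There is no spread over samples to set beside them. Genes whose pair of values on the log2(signal + 1) scale lay closest to the members' mean of 2.09 and 0.00 were Lrrc69 (3.26 in the replicate 1 library), Fzd2 (3.25), Slc26a7 (3.25), Serpina1f (3.28) and Slc7a14 (3.24), each with 0 in the replicate 2 library. No Reg gene was itself as close to that mean as these. On the same scale the Reg genes ranged from 0.00 (Reg3g) to 3.54 (Reg2) in the replicate 1 library. The likeness rests on 2 libraries, and 1225 genes had signal in the replicate 1 library only.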

How the data were processed

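DNase-seq of 2 thymus libraries was used as deposited, on mm10 per the labels. The deposited peak lists give a signal per peak, with a scaling not given in the sources used here. FDR tables, as deposited, give a p-value-like FDR below 0.05 per interval, and the deposited footprint lists a score that is 0.01 in every row, so footprints were not ranked. Per the deposited notes, lists derive from the filtered alignment of their library. The aligner, the callers and their thresholds are likewise not given there. The number of reads behind each value is unknown, so no interval or floor is given.

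Computed here, with Python 3.11.15, numpy 2.4.6, pandas 2.3.3, samtools 1.23.1 and Biopython 1.88, were overlaps of at least 1 bp with GENCODE vM21 on GRCm38.p6, promoter windows of 1 kb around any transcript start, 19710 tiles of the interval's length, uniqueness of 36-base words, consensus matches on both strands and global alignments of upstream windows. The shorter peak list was the main one. The overlap steps were checked on simulated data. No test was run: there is 1 group, and the members, lists and alternatives were chosen with earlier results of these data known. All Reg genes, all peaks of the shorter list, and for other lists the 3 genes highest by mean percentile of promoter signal were named by rule; other genes of these lists, and the exon and FDR comparisons, were chosen after their values were seen. The likeness rule took the 5 closest genes. Alternatives were the longer list, the stronger 50% of peaks, flanks of 5 and 100 kb, windows of 500 and 2500 bp, the gene's 5' end, stricter FDRs, 50% overlap and each library alone.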

Additional observations from a re-analysis of the deposited data

How the results depend on the processing

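Of 56 alternative values, 38 stayed within 1.5 times the main one, 18 moved and 0 reversed. Many of the 38 are values of 0 beside a main value of 0, in the replicate 2 library or for regions in both libraries. Stricter settings could give nothing else there. Counts, sums and lengths cannot fall below 0, so none could reverse. In the replicate 1 library the longer list gave 13 peaks and a summed signal of 19.2 (main 6 and 12.4), flanks of 100 kb gave 11 peaks and 6724 listed bp (main 4163), and an FDR of at most 0.001 left 1950 bp. Counting only the gene's 5' end left 1 Reg gene with a promoter peak (main 3), and footprints within peaks of the shorter list numbered 16 (main 25). In the replicate 2 library flanks of 100 kb gave 132 listed bp and 0 peaks, and every other alternative gave 0. With 1 library at a time the count of peaks ranged from 0 to 6 (mean 3), summed signal from 0 to 12.4 (6.22), Reg genes with a promoter peak from 0 to 3 (1.5), footprints from 0 to 25 (12.5) and listed length from 0 to 4163 bp (2082). The lower end in each case is the replicate 2 library alone. No paired analysis was possible because the 2 libraries form 1 group. The lists hold only what passed a threshold, and depth is unknown, so weaker cutting in the replicate 2 library is not shown to be absent. The cause of the moves between libraries was not tested.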
